A study of Homo sapiens with 6 samples.

Results

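The genes of cholesterol synthesis, with regulators and other targets of the sterol regulatory element-binding proteins (SREBPs), were followed on 6 arrays of SKOV3 cells, an established human ovarian cancer line. The members were 30 named genes. No measured value was part of the rule that picked them, although earlier results of these data were known when they were chosen. Each gene was read through a probe whose sequence matched one of its protein-coding transcripts without mismatch, and through the brightest such probe by the mean of the deposited values where there were several. A probe that also matched another gene was passed over where the gene had a probe of its own. The search found 38 probes for 28 of the 30 genes, out of 18613 genes with such a probe and 125584 probes in all, and no matching probe was found for CYP51A1 or SCD. All 28 genes entered the test, and 27 were well above background on all 6 arrays. INSIG1 was well above background on 5 arrays and not on vehicle 2. Cells had been kept in RPMI 1640 medium with 10% heat-inactivated serum and given either 100 nmol/L 1α,25(OH)2D3, the hormonally active form of vitamin D, or an equal concentration of its solvent ethanol for 72 h. There were 3 arrays with the hormone label, called VD 1 to VD 3 here, and 3 with the vehicle label, called vehicle 1 to vehicle 3. Nothing in the sources says that the arrays came from separate cultures, so the p-values measure the spread between arrays, which may be technical, and 3 arrays a label limit the precision.

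Cholesterol is built in the cytosol and endoplasmic reticulum from acetyl-CoA, first through the mevalonate pathway to farnesyl diphosphate and then through squalene and lanosterol. The 2 SREBP genes encode membrane-bound transcription factors that SCAP carries to the Golgi when sterols in the endoplasmic reticulum are low. There the factors are cut free and enter the nucleus, where they bind sterol regulatory elements, often beside NF-Y sites, and raise transcription of sterol and fatty acid genes. INSIG1 holds SCAP back when sterols are plentiful and is itself a target, so these genes are known to move together with the sterol supply of a cell.

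Each spot had been read in one colour, and a value below is log2 of the processed signal minus the array's 75th percentile, so that 0 is the level of that percentile and not the absence of a transcript. The share of probes well above background ran from 49.1% on vehicle 2 to 57.5% on VD 1. CYP24A1, the gene of the enzyme that breaks down vitamin D and a direct target of the hormone's receptor, went against the labels. Its exon 12 probe gave -5.10, 6.70 and -3.80 on VD 1, VD 2 and VD 3 and 6.90, -2.48 and 7.29 on vehicle 1, vehicle 2 and vehicle 3. The signal of this probe was well above background on VD 2, vehicle 1 and vehicle 3. A brighter CYP24A1 probe in exon 10 gave -3.16, 7.43 and -2.63 on the VD arrays and 7.93, 1.07 and 8.19 on the vehicle arrays, and it was well above background on vehicle 2 as well, where it lay between the high and the low arrays. The array names below are therefore those of the labels and nothing more. Of the epithelial and SKOV3 markers KRT7, KRT8, KRT19, EPCAM, ERBB2 and PAX8, all 6 measured ones were well above background on every array, and KRT18 had no matching probe.

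The upstream sequences of 4 members are shown because SREBPs act there, and the members were chosen for their part in the results. INSIG1, HMGCS1 and MSMO1 were among the 6 members with the widest range over the arrays, and among the members SREBF2 alone matched the letters TCACCCCAC in the window searched. Each run is the 250 bases before the RefSeq start site on GRCh38.p14, written 5′ to 3′ on the gene's strand, and capitals mark matches to the motifs TCACCCCAC (core of the sterol regulatory element), TCACNCCAC (the same with 1 free base, which includes the first), CCAAT (NF-Y box) and CACGTG (E box) on either strand.
INSIG1, chr7:155297628-155297877, plus strand: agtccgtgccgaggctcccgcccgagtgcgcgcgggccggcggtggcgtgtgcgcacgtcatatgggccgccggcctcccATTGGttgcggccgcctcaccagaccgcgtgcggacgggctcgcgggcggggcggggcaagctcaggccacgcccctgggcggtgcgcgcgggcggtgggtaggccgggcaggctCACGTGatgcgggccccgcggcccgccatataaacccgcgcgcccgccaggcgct
HMGCS1, chr5:43313413-43313662, minus strand: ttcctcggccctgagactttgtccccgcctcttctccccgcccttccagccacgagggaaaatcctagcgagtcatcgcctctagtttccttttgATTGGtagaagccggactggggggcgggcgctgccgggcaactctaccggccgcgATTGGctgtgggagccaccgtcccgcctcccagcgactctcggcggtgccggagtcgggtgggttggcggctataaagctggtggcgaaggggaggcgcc
MSMO1, chr4:165327419-165327668, plus strand: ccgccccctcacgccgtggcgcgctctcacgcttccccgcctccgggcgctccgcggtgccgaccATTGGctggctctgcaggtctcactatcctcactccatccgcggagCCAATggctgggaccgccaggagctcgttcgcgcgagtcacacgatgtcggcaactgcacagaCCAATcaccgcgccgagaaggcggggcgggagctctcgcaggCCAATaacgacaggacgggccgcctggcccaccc
SREBF2, chr22:41832855-41833104, plus strand: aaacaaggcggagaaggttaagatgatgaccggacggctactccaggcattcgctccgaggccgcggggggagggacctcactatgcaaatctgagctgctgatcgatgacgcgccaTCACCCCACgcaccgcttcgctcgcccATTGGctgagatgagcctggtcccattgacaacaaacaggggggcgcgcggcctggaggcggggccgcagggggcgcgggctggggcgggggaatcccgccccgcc
In SREBF2 the element TCACCCCAC lay at -133 to -125 from the start and an inverted CCAAT box at -106 to -102. INSIG1 had an inverted CCAAT box at -170 to -166 and an E box at -55 to -50, HMGCS1 had 2 inverted CCAAT boxes, and MSMO1 had 4 boxes, 1 of them inverted. Windows of 300 bases, 250 before and 50 after the start, were found in the RefSeq table for 26 of the members. CCAAT lay in 17 of these 26 and in 35.7% of 27305 such windows in the genome. CACGTG lay in 4 of 26 (SCAP, INSIG1, SC5D and LSS) and in 7.43% of all windows. TCACCCCAC lay in 1 of 26 and in 0.425% of all windows, and TCACNCCAC in 1 of 26 and in 1.15%. A match is a run of letters and no sign that a factor was bound, and elements that differ from these letters were not searched.

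The first question was whether the genes differed between cells labelled with the hormone and cells labelled with vehicle. Of the 28 members, 22 had a positive log2 fold change, VD against vehicle, and 6 a negative one, with a median of 0.31 and a range from -0.31 to 0.64. Over all 63332 tested probes 50.3% were positive and the median was 0.00. Without vehicle 2, 13 of the 28 members were positive, and without any other single array 21 to 23 were. Members of the mevalonate pathway had a median of 0.33 (6 of 7 positive), the steps from squalene to cholesterol 0.39 (8 of 10), regulators and transport 0.15 (4 of 5) and fatty acid synthesis 0.20 (4 of 6). Each array held RNA pooled over many cells, so fewer cells that express a gene and less RNA per cell cannot be told apart.

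No member differed between the labels at an adjusted p under 0.05 in limma (0 of 28), as was the case for 0% of all tested probes, and the smallest adjusted p was 0.711. At an unadjusted p under 0.05 limma called 1 member, HSD17B7, against 6.46% of all tested probes. The call was for a higher signal with the VD label, the direction of 3.9% of all probes, and no member was called lower, the direction of 2.55%. A change of more than 2-fold at an unadjusted p under 0.05 was met by 0 of 28 members and 0.812% of all probes in limma. The labels did not overlap for 1 member that was higher with VD, again HSD17B7, beside 6.3% of all probes, and for 0 members lower with VD, beside 5.18%. Except for HSD17B7, each member's values thus overlapped between the labels. The methods' t-test on the same values called 0 members at an unadjusted p under 0.05, beside 5.51% of all probes. The call of HSD17B7 was lost with normexp correction (0.33, unadjusted p = 0.0601 in limma) and with no filter on dim probes (unadjusted p = 0.0549 in limma). The call was also lost when VD 1, VD 2 or vehicle 2 was left out. With the brightest probe on any sense transcript, limma called TM7SF2 in its place (0.48, unadjusted p = 0.0231), so the member called depended on the choice of probe.

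**Figure D1:**
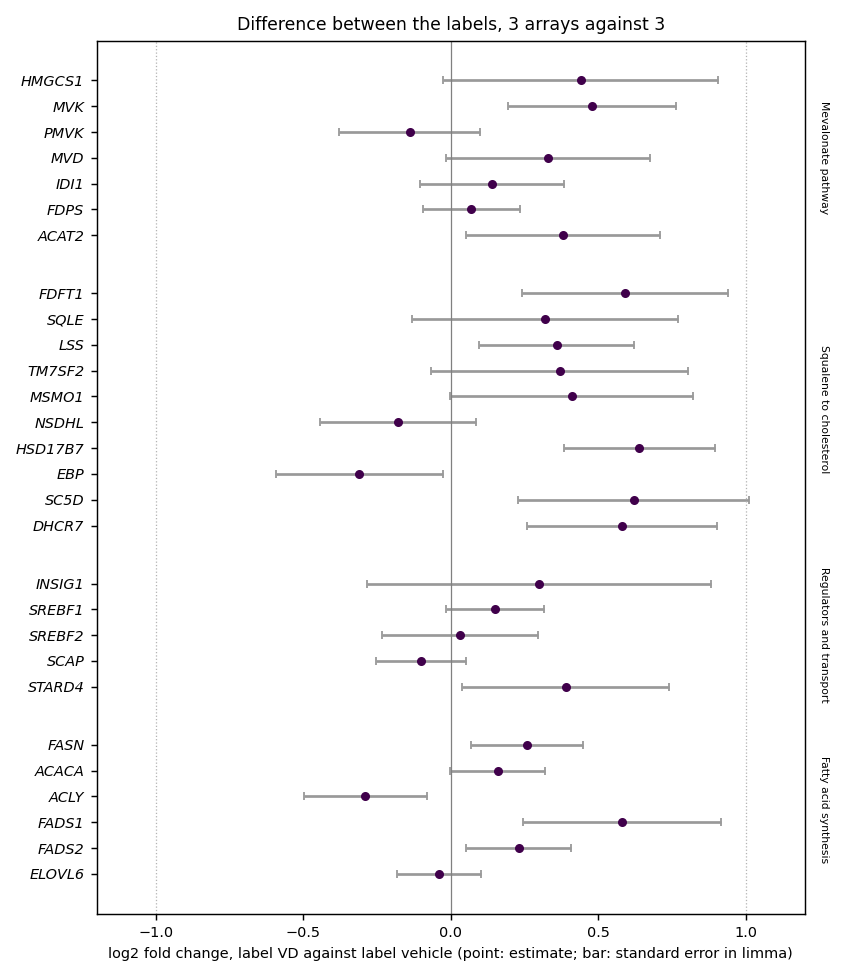
Log2 fold change of the 28 members with a probe, label VD against label vehicle (x axis), 1 row per gene by role. Points are limma estimates from 3 arrays against 3, bars are standard errors, and dotted lines mark a fold change of 2. All points lie between -0.31 and 0.64, 22 of them to the right of 0.

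The mevalonate pathway begins with ACAT2, the cytosolic thiolase, and HMGCS1, the synthase that makes HMG-CoA. HMGCS1 (chromosome 5, exon 11, 3′ UTR) read 2.58, 2.52 and 2.37 on VD 1 to VD 3 and 2.03, 1.00 and 3.12 on vehicle 1 to vehicle 3. Both the lowest and the highest array carried the vehicle label, so the VD arrays lay inside the vehicle range. The log2 fold change was 0.44 with a standard error of 0.465 (adjusted p = 0.803 in limma). ACAT2 had the same low array, at 1.05 on vehicle 2 against 1.93 to 2.41 elsewhere, and a log2 fold change of 0.38.

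MVK, mevalonate kinase, adds the first phosphate to mevalonate. Its probe in exon 1 (5′ UTR) read 1.53, 1.48 and 0.81 on the VD arrays and 0.45, 0.65 and 1.30 on the vehicle arrays. VD 1 and VD 2 were highest and vehicle 1 lowest, with overlap through vehicle 3. The log2 fold change was 0.48 with a standard error of 0.285 (adjusted p = 0.713 in limma). A dimmer MVK probe in exon 11 gave -0.11, the other sign, so its direction depended on the probe. With the slide as a block, which compares VD 3 alone with the vehicle arrays, the exon 1 probe gave 0.01. PMVK, phosphomevalonate kinase, lay between -0.60 on VD 1 and 0.24 on VD 2 and had a log2 fold change of -0.14, the negative one of this role.

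MVD, the decarboxylase that yields isopentenyl diphosphate, ranged from -1.07 on vehicle 2 to 0.42 on vehicle 3, with a log2 fold change of 0.33. IDI1, the isomerase of that product, read 3.30, 3.47 and 3.06 on the VD arrays and 3.11, 2.73 and 3.59 on the vehicle arrays. Again vehicle 2 was lowest and vehicle 3 highest. Its log2 fold change was 0.14 with a standard error of 0.244 (adjusted p = 0.884 in limma). FDPS, which makes farnesyl diphosphate, stayed between 2.82 and 3.19 and had a log2 fold change of 0.07.

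The steps from farnesyl diphosphate to cholesterol open with FDFT1, squalene synthase. Its signal was 3.42, 3.34 and 2.99 on the VD arrays and 2.91, 1.83 and 3.23 on the vehicle arrays, lowest on vehicle 2 and otherwise within 0.51 of each other. SQLE, the squalene epoxidase that controls flux through the sterol branch, read -0.29, -0.24 and -0.46 on the VD arrays and -0.55, -1.73 and 0.32 on the vehicle arrays. As for HMGCS1, the VD arrays lay inside the vehicle range. The log2 fold changes were 0.59 for FDFT1 (standard error 0.349, adjusted p = 0.713 in limma, and 0.18 without vehicle 2) and 0.32 for SQLE (standard error 0.452, adjusted p = 0.851).

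LSS, the cyclase that forms lanosterol, gave 2.74, 2.23 and 2.58 on the VD arrays and 2.39, 1.62 and 2.46 on the vehicle arrays. TM7SF2, a sterol reductase of the C14 position, gave 2.52, 1.96 and 2.51 on the VD arrays and 2.77, 0.93 and 2.17 on the vehicle arrays. MSMO1, which starts removal of the methyl groups at C4, gave 2.93, 3.08 and 2.75 on the VD arrays and 2.81, 1.47 and 3.23 on the vehicle arrays. For all of LSS, TM7SF2 and MSMO1 vehicle 2 was the lowest array, and their log2 fold changes were 0.36, 0.37 and 0.41. The highest-to-lowest ratio over the 6 arrays was 3.39 for MSMO1 and 3.58 for TM7SF2.

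HSD17B7, the reductase that acts on the 3-keto group during C4 demethylation, was the member called at an unadjusted p. Its probe spans the junction of exons 6 and 7 and is shown as the reading behind that call, 5′ to 3′ on the plus strand, with the exon 7 bases in capitals.
HSD17B7, chr1:162803509-162804299 on hg38: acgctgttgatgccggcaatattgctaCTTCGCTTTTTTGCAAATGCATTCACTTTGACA
Signals were -0.36, -0.26 and -0.61 on the VD arrays and -0.67, -1.60 and -0.88 on the vehicle arrays. The labels did not overlap, although VD 3 and vehicle 1 were 0.06 apart. The log2 fold change was 0.64 with a standard error of 0.256 (adjusted p = 0.711 in limma, unadjusted p = 0.0377). On the slide that holds both labels, where VD 3 is the only VD array, the difference was 0.44. Without vehicle 2 the difference was 0.37 with an unadjusted p = 0.113 in limma. A probe of exon 2 gave 0.73. A brighter probe was passed over because it also matches the pseudogene HSD17B7P2. It gave 0.29 (unadjusted p = 0.264 in limma), and its labels overlapped.

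NSDHL, the decarboxylase of the same demethylation, read 0.06, 0.61 and -0.20 on the VD arrays and 0.15, 0.13 and 0.74 on the vehicle arrays, a log2 fold change of -0.18. The other negative value of the branch was that of EBP, the sterol isomerase. It gave -0.75, -0.82 and -0.74 on the VD arrays and -1.06, 0.10 and -0.40 on the vehicle arrays, so vehicle 2 was its highest array. The log2 fold change of EBP was -0.31 (standard error 0.282, adjusted p = 0.772 in limma).

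SC5D, the desaturase of lathosterol, gave 2.12, 0.82 and 2.19 on the VD arrays and 1.46, 0.63 and 1.18 on the vehicle arrays. Its 2 low arrays, VD 2 and vehicle 2, carried different labels. The log2 fold change was 0.62 with a standard error of 0.392 (adjusted p = 0.717 in limma). Without VD 2, SC5D was the member that changed more than 2-fold at an unadjusted p under 0.05 in limma. Of all probes, 5.28% reached that p at any fold change, which is a looser threshold. The share of all probes that also changed more than 2-fold is not given without VD 2. With no array left out that share was 0.812%. SC5D also changed more than 2-fold on the slide that holds both labels, where VD 3 is the only VD array. DHCR7, the reductase that makes cholesterol from 7-dehydrocholesterol, the precursor from which skin makes vitamin D, gave 4.65, 4.84 and 4.41 on the VD arrays and 4.29, 3.30 and 4.56 on the vehicle arrays. Vehicle 2 was lowest and vehicle 3 lay between VD 1 and VD 3, with a log2 fold change of 0.58 and a standard error of 0.323 (adjusted p = 0.711 in limma), and 0.21 without vehicle 2.

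Among regulators, INSIG1 had the widest range of all members. Its probe (chromosome 7, exon 6, 3′ UTR) read -1.57, -1.47 and -1.95 on the VD arrays and -2.05, -3.25 and -0.58 on the vehicle arrays. The value on vehicle 2 was not well above background and stands as measured. Vehicle 3 was 0.89 above the next array, VD 2, and the log2 fold change of 0.30 had a standard error of 0.584 (adjusted p = 0.898 in limma). STARD4, a carrier of cholesterol between membranes and an SREBP target, gave 2.55, 2.25 and 2.25 on the VD arrays and 2.08, 1.16 and 2.65 on the vehicle arrays. All 4 STARD4 probes had their lowest value on vehicle 2, and the log2 fold change was 0.39.

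SREBF1, the gene of the SREBP that mainly drives fatty acid genes, gave 6.67, 6.55 and 6.40 on the VD arrays and 6.35, 6.25 and 6.58 on the vehicle arrays. These values spanned 0.42, with a log2 fold change of 0.15 (standard error 0.167). A dimmer probe of the same exon 19 was highest on VD 3 at 1.05 and lowest on vehicle 3 at -0.44, so the probes disagreed in their order of arrays. SREBF2, whose product mainly drives cholesterol genes, gave 2.54, 2.15 and 2.52 on the VD arrays and 2.60, 1.81 and 2.71 on the vehicle arrays. Vehicle 2 was lowest, and the log2 fold change of 0.03 had a standard error of 0.265. SCAP stayed between 2.01 and 2.28 with a log2 fold change of -0.10.

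For fatty acid synthesis, FASN, the fatty acid synthase, gave 4.43, 4.24 and 4.15 on the VD arrays and 3.82, 3.90 and 4.33 on the vehicle arrays. Vehicle 1 and vehicle 2 were lowest and vehicle 3 was the second highest array. The log2 fold change was 0.26 with a standard error of 0.19 (adjusted p = 0.734 in limma). FADS1, the delta-5 desaturase, gave 5.18, 5.83 and 4.85 on the VD arrays and 5.21, 4.14 and 4.77 on the vehicle arrays. VD 2 was highest and vehicle 2 lowest, with a log2 fold change of 0.58 and a standard error of 0.336 (adjusted p = 0.711 in limma). With the slide as a block, which compares VD 3 alone with the vehicle arrays, the log2 fold change was 0.14.

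Of the other fatty acid genes, ACACA, acetyl-CoA carboxylase, lay between 1.54 and 1.95 and its 2 probes gave log2 fold changes of 0.16 and 0.31. FADS2, the delta-6 desaturase, lay between 4.03 and 4.66 and gave a log2 fold change of 0.23, against -0.19 for a second probe. ACLY, which makes cytosolic acetyl-CoA from citrate, was highest on vehicle 3 at 5.80 and had a log2 fold change of -0.29. ELOVL6, an elongase of long-chain fatty acids, stayed between 0.28 and 0.44 on the 6 arrays, the narrowest range of the members, and its log2 fold change was -0.04.

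**Figure D2:**
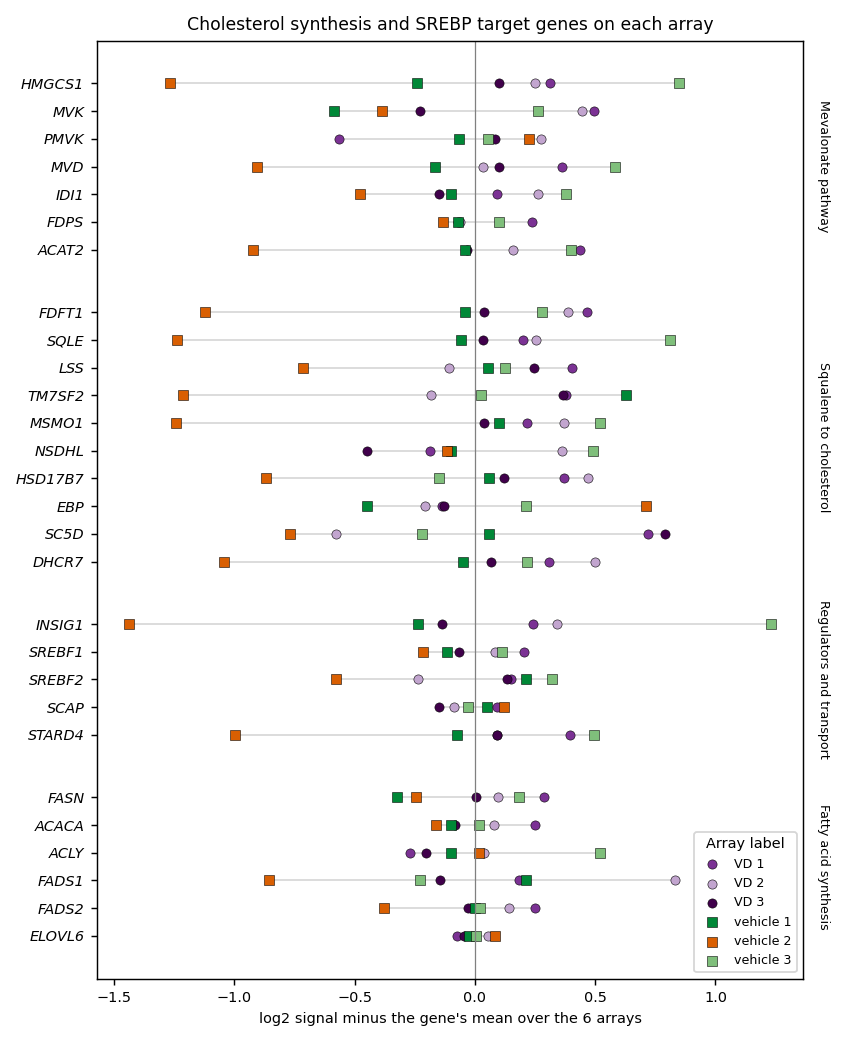
Each row is 1 gene, grouped by role, and each mark is 1 array: the x axis gives the log2 signal minus the gene's mean over the 6 arrays. Circles are arrays labelled VD and squares arrays labelled vehicle. Vehicle 2 sits at the left end for 19 of the 27 genes measured on all arrays and also for INSIG1, and at the right end for EBP, SCAP and ELOVL6.

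Vehicle 2 was the lowest array for 19 of the 27 members measured on all 6 arrays (70.4%), beside 17.5% of all tested probes. VD 1 and vehicle 3 were each the highest array for 9 members, beside 18.3% and 17.9% of all probes. The 8 members whose lowest array was another one were MVK, PMVK, NSDHL, EBP, SCAP, FASN, ACLY and ELOVL6. Quantile normalization and the deposited values gave the same 19 members in number on vehicle 2, and normexp correction gave 17.

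Counted against its own mean over the 6 arrays, a member lay above it in 22 of 27 cases on VD 1, 20 on VD 2, 14 on VD 3, 9 on vehicle 1, 5 on vehicle 2 and 23 on vehicle 3. For all tested probes the share above the mean was between 49.8% and 53.1% on every array. On vehicle 2 the median deviation was -0.58 over the 27 members, -0.95 over the sterol branch, -0.49 over the mevalonate pathway and -0.20 over fatty acid synthesis. Over all tested probes the median deviation lay within 0.02 of 0 on each array. With vehicle 2 left out, vehicle 1 was the lowest array for 12 of the 27 members, beside 20.7% of all probes, and VD 1 and vehicle 3 were highest for 10 each, beside 21% and 23.3%.

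Vehicle 2 differed in other measures too. It had the lowest share of probes well above background, and the summed linear signal of the fibroblast markers COL1A1, COL1A2, DCN, LUM and PDGFRA was 0.314 there, against 1.51 to 2.96 on the VD arrays and 1.41 and 1.78 on the other vehicle arrays, in units of the 75th percentile. COL1A2 read -2.67 on vehicle 2, not well above background there, and -0.05 to 1.35 elsewhere, and DCN and PDGFRA were well above background on no array. The summed leukocyte markers (PTPRC, CD3E and CD14, 3 of 3 measured) ranged from 4.59 to 5.49 on the VD arrays and from 4.64 to 5.13 on the vehicle arrays. PTPRC was read in exon 6. Its probes in exons 3, 9 and 23 were well above background on no array, and that in exon 33 on all 6. The endothelial markers (PECAM1, VWF and CDH5) ranged from 3.44 to 3.80 and from 3.64 to 4.67. The part of these measures in the low member signals was not tested.

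**Figure D3:**
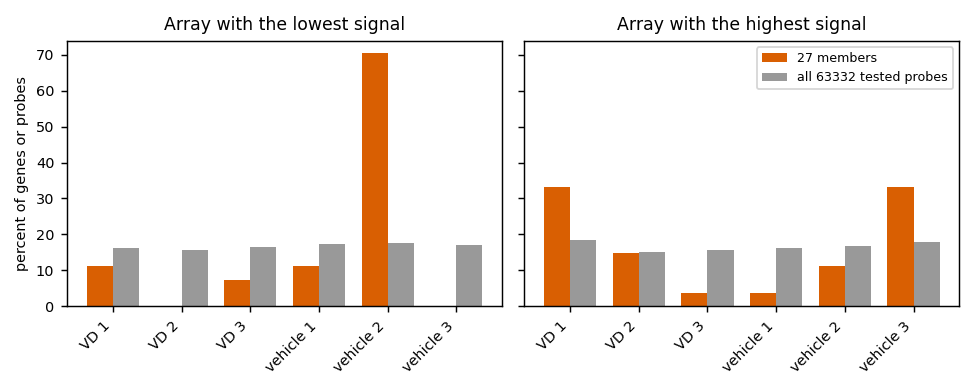
Percent of the 27 members (orange) and of all 63332 tested probes (grey) whose lowest signal (left) or highest signal (right) was on the array named on the x axis. The bar for members on vehicle 2 stands at 70.4% on the left against 17.5% for all probes, and VD 1 and vehicle 3 hold 33.3% of the members each on the right.

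Averaged over the 27 members, the signal was 2.41, 2.34 and 2.22 on VD 1 to VD 3 and 2.16, 1.66 and 2.44 on vehicle 1 to vehicle 3. The mean was 2.33 ± 0.10 with the VD label and 2.09 ± 0.39 with the vehicle label (SD, n = 3 each), a difference of 0.24 that is smaller than the vehicle spread. Leaving out vehicle 2 brought the difference to 0.03 and leaving out vehicle 3 raised it to 0.42. With the slide as a block, which compares VD 3 alone with the vehicle arrays, the difference was 0.14. Without vehicle 3 limma called 8 members at an unadjusted p under 0.05, all higher with VD (DHCR7, FDFT1, HMGCS1, HSD17B7, INSIG1, MVD, MVK and STARD4), beside 5.48% of all probes, and none at an adjusted p under 0.05. INSIG1, not well above background on vehicle 2, passed the filter only through the VD label, where it was higher, so its call carries no weight. The span over the 6 arrays was 0.78, and 0.29 over the 5 arrays other than vehicle 2.

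By role, the sterol branch spanned 1.03 over the 6 arrays and 0.25 without vehicle 2, and the mevalonate pathway 0.93 and 0.56. The sterol mean read 1.70, 1.56 and 1.54 on the VD arrays and 1.45, 0.67 and 1.66 on the vehicle arrays. The mevalonate mean read 1.80, 1.80 and 1.58 on the VD arrays and 1.42, 1.05 and 1.98 on the vehicle arrays. In both roles vehicle 2 was lowest, and vehicle 3 lay above the other vehicle arrays. Regulators and transport spanned 0.65 and fatty acid synthesis 0.46, with vehicle 2 lowest in each.

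**Figure D4:**
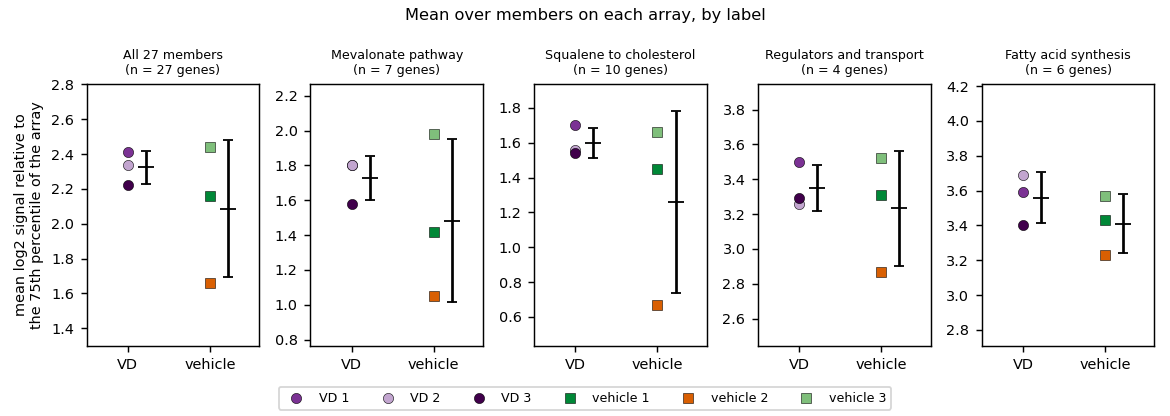
Mean of the members' log2 values, scaled to the 75th percentile (y axis, a window of 1.5 in each panel), for all 27 members and by role, with 1 mark per array and the mean and SD of the 3 arrays of a label beside them. Vehicle 2 is the lowest mark in all 5 panels, at 1.66 for all members and 0.67 for the sterol branch.

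Set beside CYP24A1, whose exon 12 probe was high on VD 2, vehicle 1 and vehicle 3, the order of the member mean ran vehicle 3, VD 1, VD 2, VD 3, vehicle 1 and vehicle 2. Arrays with a high and with a low CYP24A1 signal thus alternated along the order, and VD 1, with CYP24A1 at -5.10, was next to vehicle 3, with CYP24A1 at 7.29. The lowest array, vehicle 2, had CYP24A1 at -2.48. The arrays were not averaged or tested by the CYP24A1 signal, which is a measured value and no label.

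Other genes of the pathway were read from 5 further lists. Of 11 further genes of SREBP processing and sterol sensing, 1 had a positive and 10 a negative log2 fold change, with a median of -0.22. At an unadjusted p under 0.05 in limma 1 was called lower, beside 2.55% of all tested probes. That gene was INSIG2, the second INSIG, which read 0.34, 0.37 and 0.12 on the VD arrays and 0.49, 1.17 and 1.04 on the vehicle arrays. The labels did not overlap for INSIG2, nor for MBTPS2 and ERLIN1 of this list, all lower with VD, beside 5.18% of all probes. The log2 fold change of INSIG2 was -0.62 with a standard error of 0.213 (adjusted p = 0.711 in limma).

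LXR, the nuclear receptor of oxysterols, raises export genes when sterols are plentiful. Of 7 such genes 5 were tested, with 3 positive and 2 negative log2 fold changes and none called at an unadjusted p under 0.05 in limma. ABCA1, the exporter of cholesterol and a leading LXR target, read 2.32, 0.89 and 2.35 on the VD arrays and 1.68, 2.76 and 0.30 on the vehicle arrays. It was highest on vehicle 2 and lowest on vehicle 3, the reverse of INSIG1, HMGCS1 and SQLE on those arrays, and its log2 fold change was 0.27 with a standard error of 0.635. ABCG1 of the same list did not share this order, at -0.70 on vehicle 2 and -0.69 on vehicle 3. LPCAT3, a phospholipid acyltransferase, had a log2 fold change of 0.28 and ranged from -0.52 on vehicle 3 to 0.01 on VD 1. Among the tested genes of this list, the labels did not overlap for LPCAT3, higher with VD, beside 6.3% of all probes. They did not overlap for ABCG1 either, lower with VD, beside 5.18%.

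**Figure D5:**
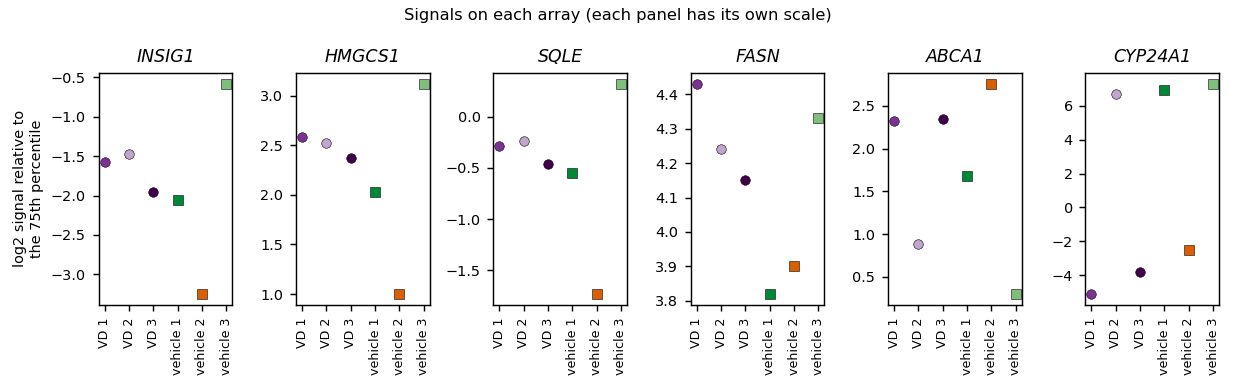
Log2 signal relative to the 75th percentile (y axis, its own scale in each panel) on each array for INSIG1, HMGCS1, SQLE, FASN, ABCA1 and CYP24A1, with circles for label VD and squares for label vehicle. INSIG1, HMGCS1 and SQLE are lowest on vehicle 2 and highest on vehicle 3, ABCA1 is the reverse, and CYP24A1 is high on VD 2, vehicle 1 and vehicle 3.

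Of 8 tested genes of cholesterol transport and storage 4 were positive and 4 negative, and none was called at an unadjusted p under 0.05 in limma. LIPA, the lysosomal lipase, had the largest log2 fold change of them at 0.41 and was lowest on vehicle 2, where it was not well above background, and STARD3 had -0.34. In the isoprenoid branches 4 of 9 were positive and 1 was called lower, beside 2.55% of all probes. It was DHDDS of dolichol synthesis, which read 1.31, 1.51 and 1.32 on the VD arrays and 1.64, 1.95 and 1.80 on the vehicle arrays. The labels did not overlap for DHDDS, as for 5.18% of all probes in that direction, and the log2 fold change was -0.42 (adjusted p = 0.711 in limma). GGPS1, which makes geranylgeranyl diphosphate, had a log2 fold change of 0.43. Of 16 further genes of fatty acid synthesis and activation 8 were positive and 8 negative. At an unadjusted p under 0.05 in limma 1 was called lower, again beside 2.55% of all probes. It was DGAT2 of triglyceride synthesis, with a log2 fold change of -0.55. DGAT2 had values from -2.58 to -1.98 on the VD arrays and from -1.97 to -1.52 on the vehicle arrays. The labels did not overlap for DGAT2, MCAT and AGPAT2, all lower with VD, beside 5.18% of all probes. MID1IP1, a regulator of acetyl-CoA carboxylase, had 0.40. None of these lists held a gene that changed more than 2-fold at an unadjusted p under 0.05 in limma.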

How the data were processed

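Single-colour Agilent arrays measured RNA of 6 SKOV3 samples. The authors scanned them with Agilent Feature Extraction 10.7.1.1 (per the submitters' processing notes) and deposited for each spot a linear intensity that the software had corrected for background within the array. The authors also deposited log2 values, 1 per probe and array, whose sorted columns differ by at most 0.00091, so these had been quantile normalized between arrays. The genome build behind these files is not given in the sources used here.

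Control spots and spots marked as outliers (1837 to 2471 an array) were left out, no spot was saturated, and spots of a probe were averaged. The intensity was scaled to the 75th percentile of its array before log2 was taken. A value was missing on some array for 17 of 125601 probes. The gene name field repeats the probe identifier for all probes, so sequences were matched exactly to sense transcripts of GENCODE release 44 (72.1% matched). Promoter sequences come from RefSeq. Of 74 member probes 38 matched a protein-coding transcript.

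The 63332 probes that passed the scanner's background flag on every array of 1 label or both were fitted with limma 3.58.1 in R 4.3.3, VD against vehicle with no covariate, and p-values were adjusted by Benjamini-Hochberg over all of them. Tested on simulated data (3 arrays against 3, 63332 probes, 200 changed by 3 on the log2 scale), the fit recovered 100% of the changed probes at an adjusted p under 0.05 and called 8 unchanged ones. The largest change of a member was 0.64, so this test does not show whether changes of the members' size would be found. Labels gave the groups. Slide 1 held VD 1 and VD 2, and slide 2 the other 4 arrays. A fit with the slide as a block, or on slide 2 alone, thus gives the same fold changes, those of VD 3 alone against the vehicle arrays. The members and lists were chosen with earlier results of these data known. Values on every array are given for preset members of each role (HMGCS1, IDI1, SQLE, LSS, INSIG1, SREBF1, SREBF2, STARD4, FASN and, without a probe, SCD), for the 6 widest ranges and for the 6 largest absolute log2 fold changes, and 2 genes are named from each other list, except 1 gene that is not reported here. The values of NSDHL and EBP were added after they had been seen. MBTPS2, ERLIN1, ABCG1, MCAT and AGPAT2 were also named after their values had been seen, because their labels did not overlap. ICMT and MLXIPL were likewise named afterwards, because of how they passed the filter. Alternatives were quantile normalization, normexp with an offset of 50, the deposited log2 values, another percentile, other filters, the replicate number or slide as a block, 1 slide alone, the methods' t-test, other choices of probe and each array left out. The brightest probe on any sense transcript, non-coding ones included, was an alternative chosen after seeing the data.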

Additional observations from a re-analysis of the deposited data

How the results depend on the processing

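No member passed an adjusted p under 0.05 in limma under any alternative that was run. The count of members that changed more than 2-fold at an unadjusted p under 0.05 was 0 in settings with all arrays. In the main limma fit 0.812% of all probes met these thresholds. When each array was left out in turn the count ranged from 0 to 1 (1, SC5D, without VD 2). The matching share of all probes is not given without VD 2. Within the slide that holds both labels, where VD 3 is the only VD array, SC5D had a log2 fold change of 1.11. The count of members with a positive log2 fold change ranged from 13 (without vehicle 2) to 23 with 1 array left out. The difference of the member mean, 0.24, ranged from 0.03 to 0.42 with 1 array left out. The replicate numbers did not pair the arrays: deviations of same-numbered arrays correlated at 0.12, 0.09 and -0.04, and not every array correlated best with its own number. With the replicate block the difference was 0.24, 0 members passed the adjusted threshold and 2 (HSD17B7 and SC5D) an unadjusted p under 0.05, beside 7.33% of all probes. Of 362 log2 fold changes of members under the alternatives other than leaving out an array, 349 kept their direction and 13 changed it. These were FDPS -0.00, SREBF2 -0.10, SCAP 0.01 and ELOVL6 0.03 with normexp correction, and ELOVL6 0.14 with the brightest probe on any sense transcript. The others were PMVK 0.01, IDI1 -0.08, FDPS -0.04 and ACACA -0.01, both with the slide as a block and within 1 slide. Both slide settings compare VD 3 alone with the vehicle arrays, so the same values are counted under each. With 1 array left out, 12 members changed direction, with ranges of -0.32 to 0.11 (PMVK), -0.03 to 0.13 (FDPS), -0.25 to 0.20 (SREBF2), -0.08 to 0.98 (HMGCS1), -0.04 to 0.71 (MVD), -0.07 to 0.36 (IDI1), -0.22 to 0.80 (SQLE), -0.14 to 0.78 (TM7SF2), -0.10 to 0.78 (MSMO1), -0.35 to 0.99 (INSIG1), -0.02 to 0.73 (STARD4) and -0.41 to 0.01 (NSDHL). Of those that kept their direction, FDFT1 ranged from 0.18 to 0.87, DHCR7 from 0.21 to 0.84, FADS1 from 0.29 to 0.83, MVK from 0.30 to 0.72, ACAT2 from 0.01 to 0.67 and LSS from 0.09 to 0.51. In the other lists the count above a fold change of 2 became 1 each for LXR response, isoprenoid branches and fatty acid synthesis without the filter on dim probes, and ranged from 0 to 1 for the latter pair of lists with 1 array left out (1 without VD 3). ICMT and MLXIPL of these lists were well above background on VD 1 and VD 2 alone. Without VD 3 they entered the test only through the label with their higher signal, so these counts carry no weight. In that setting 14.9% of all probes had an unadjusted p under 0.05 in limma. Apart from these settings' own construction, the cause was not tested. Signals near background, such as INSIG1 on vehicle 2, limit how far a low value can be read.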
